A study of Rattus norvegicus with 2 samples.

Results

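The MAP kinase cascade passes signals from the cell surface to the nucleus by a relay of protein kinases, and the peaks described here are those that the deposited annotation assigned to its genes. Members were all genes whose assigned name is Mapk, Map2k, Map3k, Map4k or Mapkapk followed by a number. The rule found 23 genes with 72 peaks, of 8094 gene names and 28706 peaks in all. The gene table of the rat holds 46 protein-coding genes with names of this form, so 23 of them carried a peak and 23 did not. The peaks come from 1 ChIP-seq library of rat myocardium. The animals were male Wistar rats after abdominal aorta constriction (AAC), a surgery that narrows the vessel against a wire near the renal arteries and so raises the load on the heart. The antibody is named in the labels by vendor and catalogue number only, and its target was taken from the series title to be lactylation of lysine 18 of histone H3 (H3K18la), a histone mark made from lactate. An input library with the same replicate number had no values here, no library from unoperated or stimulated rats was analysed, and the labels do not say how many animals gave the chromatin. With 1 library there is no replicate error and no test, so all values below describe that library.

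In the cascade, a MAP kinase kinase kinase (MAP3K) phosphorylates a MAP kinase kinase (MAP2K), which phosphorylates a MAP kinase (MAPK). Kinases of the MAP4K group act above the MAP3Ks, and MAPKAP kinases are substrates below the MAPKs. The classical ERK arm answers mainly to growth factors and the p38 and JNK arms to stress and cytokines, and all of them are known for their part in the growth of the heart under load. Depth is unknown, since the peak list has no library totals, and the absence of a peak means no call at the authors' threshold. The tissue label was checked against marker genes. Of 12 cardiomyocyte genes, 9 had a peak, among them Tnnt2, Tnni3 and Actc1, while Myh6, Ryr2 and Hand2 had none under their own names. Endothelial markers had a peak at 5 of 6 genes, fibroblast markers at 1 of 5, immune markers at 0 of 5, hepatocyte markers at 1 of 4 and brain markers at 2 of 4. Of all protein-coding genes 27.1% had a peak. The cardiomyocyte (75%) and endothelial (83.3%) shares lay above this, but so did the brain share (50%). The hepatocyte share (25%) lay near it, and the fibroblast (20%) and immune shares below. Lists this short cannot settle the tissue label by themselves. In such mixed tissue, which cells carried the mark at a member was not tested.

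Cascade genes carried peaks at 23 of 46 genes (50%, 95% Clopper-Pearson interval 34.9 to 65.1%), where 27.1% of the 23148 protein-coding genes of the table did. A peak with its centre within 1000 bp of a transcription start site (TSS) was found at 19 of 46 genes (41.3%, 27.0 to 56.8%), against 17.1% of all genes. The annotation's promoter class, which takes in fewer of the peaks just downstream of a TSS, was found at 10 of 46 genes (21.7%, 10.9 to 36.4%), against 9.87% of all genes. The intervals cover counting error only. The shares of all genes rest on matched names, 6224 of 8094 to a current and 140 to an older symbol. Peaks under unmatched names were not counted, so the shares of all genes may be too low, while all 23 members matched. With a minimum −log10 q of 5, 14 of 46 genes had a peak, against 14.4% of all genes, and with a minimum fold enrichment of 4, 18 of 46 did, against 19.7%. Counting peaks up to 10000 bp from the TSS gave 21 of 46 genes, against 21.5% of all genes. Whether the family stands apart from other widely expressed kinases was not tested. The members' peaks were of ordinary strength. Fold enrichment, the authors' ratio of a peak to the caller's local background, had a median of 3.94 over the 72 peaks (quartiles 3.62 and 4.74), against 4.13 (3.62 and 4.79) over the 28634 other peaks. It ran from 2.44 at a Map3k5 peak to 7.22 at the Mapk3 peak. By gene, the strongest peak had a median of 4.79 over the 23 members, against 4.63 over the 6265 protein-coding genes with a peak.

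**Figure D1:**
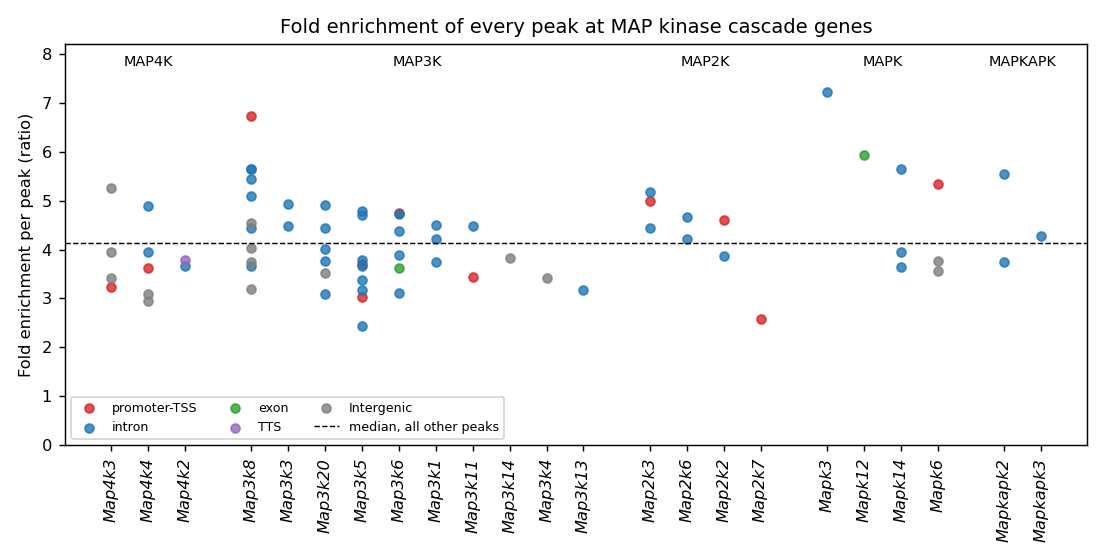
Fold enrichment (ratio to local background, vertical axis) of each of the 72 peaks, by gene and tier, coloured by the annotation's class, with the median of all other peaks as a dashed line. Each of the 4 MAPK genes with a peak reaches at least 5.33-fold, while Map3k8 is the one MAP3K gene above 5-fold.

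By tier, the share of genes with a peak and the strength of those peaks did not follow the same order. The MAP3K tier had a peak at 10 of 18 genes (55.6%), the MAP4K tier at 3 of 5 (60%), the MAP2K tier at 4 of 7 (57.1%), the MAPK tier at 4 of 13 (30.8%) and the MAPKAPK tier at 2 of 3 (66.7%), where 27.1% of all protein-coding genes had one. The MAP3K and MAP4K genes together exceeded the MAPK genes by 25.8 percentage points, with a Newcombe interval of -7.56 to 51.2 that includes 0. A strong peak, set at a fold enrichment of at least 5, stood at 1 of 18 MAP3K genes (5.56%), 1 of 5 MAP4K genes (20%), 1 of 7 MAP2K genes (14.3%), 4 of 13 MAPK genes (30.8%) and 1 of 3 MAPKAPK genes (33.3%), where 10.2% of all protein-coding genes had one. All 4 MAPK genes with a peak thus had one of that strength, while the MAPKAPK tier had the highest share under both rules. The strongest peak of each gene had a median of 5.79-fold over the 4 MAPK genes, 4.90-fold over the 2 MAPKAPK genes, 4.88-fold over the 3 MAP4K genes, 4.64-fold over the 4 MAP2K genes and 4.62-fold over the 10 MAP3K genes. The mean number of peaks per marked gene was 4.20 in the MAP3K tier, against 2 in the MAPK tier.

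The arms were compared over the MAPK, MAP2K and MAPKAPK genes, since most MAP3K and MAP4K kinases feed several arms. The p38 arm had a peak at 6 of 9 genes (66.7%, 29.9 to 92.5%), the JNK arm at 1 of 5 (20%, 0.505 to 71.6%), the atypical MAPKs at 1 of 3 (33.3%) and the ERK5 arm at 0 of 2. Of all protein-coding genes 27.1% had one, so the JNK and atypical shares lay near that of all genes. The p38 share exceeded the JNK share by 46.7 percentage points, with an interval of -6.04 to 73.5 that includes 0, so at these numbers of genes the arms cannot be told apart by counting alone. Strength cannot order the arms either, since the JNK arm had 1 peak. The strongest peak per gene had a median of 5.36-fold over the 6 p38 genes, the lowest of these being 4.28-fold at Mapkapk3. The weakest p38 peak had 3.64-fold, at Mapk14, and the sole JNK peak, at Map2k7, had 2.59-fold. A peak of at least 5-fold stood at 4 of 9 p38 genes and 0 of 5 JNK genes, against 10.2% of all protein-coding genes. By promoter-class peaks alone the direction turned, with 1 of 9 p38 genes and 1 of 5 JNK genes, a difference of -8.89 percentage points. Such a peak was found at 9.87% of all protein-coding genes. When some MAP3K and MAP4K genes were given to other arms and none to p38, 6 of 9 p38 genes and 7 of 16 JNK genes had a peak. The difference was 22.9 points, and the p38 count could not change under this choice. Map3k5 and Map3k6, whose products activate both p38 and JNK, were left without an arm.

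**Figure D2:**
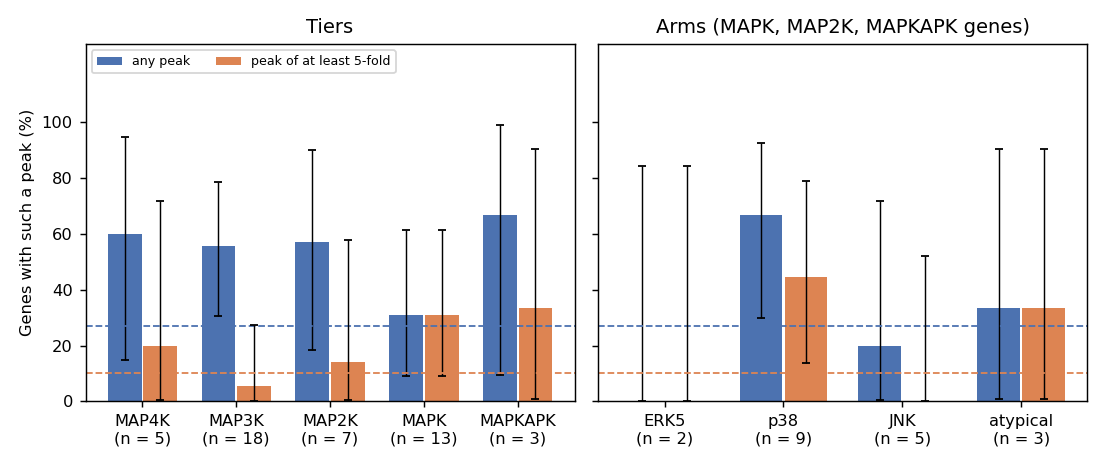
Share of genes (%, vertical axis) with any peak (blue) and with a peak of at least 5-fold (orange), by tier on the left and by arm on the right, with 95% Clopper-Pearson intervals and the number of genes under each name. Dashed lines give the same shares over all protein-coding genes, 27.1% and 10.2%, and the p38 arm with 6 of 9 genes stands above the JNK arm with 1 of 5.

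Among the MAPK genes, Mapk3 carried the strongest peak of the family. Mapk3 encodes ERK1. Its single peak had 7.22-fold enrichment and a −log10 q of 15.3, and only 1.80% of all peaks were as strong. It spanned 1021 bp (chromosome 1, 198192638 to 198193658 of rn6), with its centre 375 bp downstream of the TSS in intron 1 and the TSS inside the peak.

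The p38 kinases showed a split between neighbours. Mapk14 encodes p38α, the main p38 kinase of the heart, and Mapk12 encodes p38γ, which is abundant in muscle. Mapk14 had 3 peaks. The strongest, in intron 1 and centred 848 bp past the TSS, had 5.64-fold (chromosome 20, 5934017 to 5934870), followed by 3.94-fold in intron 7 and 3.64-fold in intron 1, lying 41.4 kb and 7.515 kb downstream. Mapk12 had 1 peak of 5.93-fold over exon 1, centred 715 bp past the TSS (chromosome 7, 130119303 to 130120425). Mapk11 and Mapk13, which encode p38β and p38δ and are the immediate neighbours of Mapk12 and Mapk14 in the gene order, had no peak under their names. Since a peak takes the name of the nearest TSS, a mark shared by such neighbours can go by either name.

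The JNK genes Mapk8, Mapk9 and Mapk10 had no peak of any class under their names, nor did Mapk7, which encodes ERK5. Peaks under other names were sought only inside transcripts of family genes that had a peak, so not at these genes. Of the atypical MAPKs, Mapk6, which encodes ERK3, reached 5.33-fold in its promoter, with a −log10 q of 9.56. It spanned 1587 bp across the TSS (chromosome 8, 82350324 to 82351910). Mapk6 also had weaker intergenic peaks of 3.76-fold and 3.56-fold, 3.886 kb and 10.8 kb upstream. Mapk4 and Mapk15 had none. Each MAPK gene with a peak thus had one of at least 5-fold within 1000 bp of the TSS.

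The marked MAP2K genes of the p38 and classical ERK arms had moderate peaks, close to the TSS at Map2k3 and Map2k2 and further downstream at Map2k6. Map2k3 encodes MKK3, an activator of p38. It had 3 peaks, of 5.18-fold in intron 1 (centred 319 bp past the TSS, chromosome 10, 45089616 to 45089951), 4.98-fold in the promoter (284 bp upstream) and 4.44-fold in intron 1 (2.706 kb downstream). Map2k6 encodes MKK6, the other main activator of p38. Its pair of intron 1 peaks had 4.67-fold (chromosome 10, 98710688 to 98710956) and 4.23-fold, 3.862 kb and 3.267 kb downstream of the TSS. Map2k6 was the only MAP2K member with no peak within 1000 bp of the TSS.

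Map2k2 encodes MEK2, an activator in the classical ERK arm, and its promoter reached 4.61-fold (chromosome 7, 11478505 to 11479010), beside an intron 1 peak of 3.86-fold. Its close relative Map2k1, which encodes MEK1, had none. Map2k7 encodes MKK7, an activator of JNK. Its one promoter peak, 924 bp upstream of the TSS (chromosome 12, 2555857 to 2556320), had 2.59-fold and a −log10 q of 1.84, the second lowest fold enrichment of the 72 peaks. Map2k4, whose product MKK4 activates JNK and also p38, and Map2k5, the activator of ERK5, had no peak.

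Of the kinases that p38 activates, Mapkapk2 (MK2) had intron 1 peaks of 5.53-fold, centred 432 bp past the TSS (chromosome 13, 47830527 to 47830830), and of 3.75-fold, 7.923 kb downstream. Mapkapk3 (MK3) had 1 peak of 4.28-fold in intron 2, centred 747 bp past the TSS (chromosome 8, 116045041 to 116045373). Mapkapk5 had none. The p38 genes with a peak, Map2k3, Map2k6, Mapk14, Mapk12, Mapkapk2 and Mapkapk3, were spread over every tier below the MAP3Ks. Mapk11, Mapk13 and Mapkapk5 of the same arm had none. The classical ERK arm also had a peak in its MAP2K tier, at Map2k2, and in its MAPK tier, at Mapk3.

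Map3k8 had the most peaks of the family and the strongest of its tier. It encodes TPL2, also called COT, an activator of MEK in inflammatory signalling. Its 11 peaks lay from 1.838 kb upstream to 67.4 kb downstream of the TSS, and 5.89% of protein-coding genes with a peak had as many. The promoter peak had 6.72-fold, a strength that 2.98% of all peaks reached, and a −log10 q of 11.1 (chromosome 17, 56108491 to 56109502). Peaks of 5.66-fold in intron 7 (chromosome 17, 56128074 to 56128582) and of 5.64-fold in intron 5 followed. The intron 5 peak spanned 2474 bp and was the widest of the family (chromosome 17, 56125144 to 56127617). The other 8 ranged from 3.20-fold to 5.44-fold, and 7 of the 11 reached a −log10 q of 5.

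The ASK kinases are stress-responsive activators of p38 and JNK, and 2 of the 3 genes had peaks. Map3k5, which encodes ASK1, had 9 peaks from 2.44-fold to 4.79-fold, 2 in the promoter and 7 in intron 1, reaching 39.0 kb downstream of the TSS. The strongest stood 24.962 kb downstream. A further 3 peaks, of 3.85-fold to 5.29-fold, were classed in introns 9, 10 and 11 of a Map3k5 transcript but bore the name of the unnamed model AABR07000497.1. Map3k6, which encodes ASK2, had 6 peaks within 7.434 kb of its TSS. Its promoter peak of 4.74-fold spanned 2414 bp across the TSS (chromosome 5, 151434795 to 151437208) and had a −log10 q of 12.0, above the 11.1 of the Map3k8 promoter peak.

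Map3k20, which encodes ZAK, a kinase that responds to stalled ribosomes, had 6 peaks from 3.10-fold to 4.91-fold. Of these, 4 lay in its intron 1, and 1 lay 62.7 kb upstream in intron 29 of Rapgef4, a gene with its own name in the list. Map3k3, an activator of the ERK5 arm, had intron 1 peaks of 4.93-fold and 4.48-fold. A further peak of 4.05-fold was classed in intron 5 of a Map3k3 transcript but bore the name Limd2. Map3k1, a large kinase that activates the JNK arm, had 3 intron 1 peaks of 3.75-fold to 4.51-fold, 7.202 kb to 12.0 kb downstream of the TSS and none near it. Map3k11, the mixed-lineage kinase MLK3, had 4.48-fold in intron 1 and 3.44-fold in the promoter.

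Single peaks of modest strength made up the rest of the MAP3K tier. Map3k14, which encodes NIK of the non-canonical NF-κB pathway, had 3.83-fold 46.1 kb upstream. Map3k4 had 3.41-fold 10.8 kb upstream, and Map3k13 3.16-fold in intron 1, 232 bp downstream of its TSS. No peak carried the names of Map3k2, Map3k7, Map3k9, Map3k10, Map3k12, Map3k15, Map3k19 and Map3k21. Map3k15 encodes ASK3 and is X-linked, and Map3k7 encodes TAK1, which relays TGF-β and interleukin-1 signals.

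All 3 marked MAP4K genes had a peak across the TSS, and none of those peaks was the strongest of the tier. At Map4k3 the promoter peak was wide and weak, 1972 bp and 3.24-fold (chromosome 6, 3443707 to 3445678), and a peak 25.6 kb upstream was the strongest at 5.25-fold. Map4k4, which encodes HGK, had a promoter peak of 3.62-fold over 1782 bp and 4.88-fold in intron 2, 4.566 kb downstream. Map4k2 had peaks of 3.78-fold and 3.67-fold within 1000 bp of its TSS, the first of them classed at the termination site of another transcript. Map4k1, a kinase of blood cells, and Map4k5 had none.

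In this list, larger shares of the cascade peaks than of other peaks lay near start sites and in intron 1. Of the 72 peaks, 31 were in intron 1 (43.1%, 95% Wilson interval 32.3 to 54.6%), against 21.8% (21.3 to 22.3%) of all other peaks and 26.8% of the other peaks of protein-coding genes. Within 1000 bp of a TSS lay 25 (34.7%, 24.8 to 46.2%), against 19.4% (18.9 to 19.8%) and 23.9%. Intergenic peaks numbered 14 (19.4%, 12.0 to 30.0%), against 41.2% (40.6 to 41.7%) and 32.4%. Beyond 10000 bp from any TSS lay 23 (31.9%), against 57.4% and 52.4%. The 4 genes with 6 or more peaks (4 of 23 members, where 15.3% of protein-coding genes with a peak had as many) held 32 of the 72 (44.4%). Over the other 19 genes, 17 of 40 peaks (42.5%) were in intron 1 and 9 (22.5%) were intergenic. Counted by gene, 14 of 23 members (60.9%) had an intron 1 peak, against 40% of the 6265 protein-coding genes with a peak. An intergenic peak was assigned to 7 of 23 members (30.4%), against 38.1% of those genes, a smaller gap than that counted by peak. Peaks of 1 gene share their gene and may not be independent, in which case the intervals by peak are too narrow.

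**Figure D3:**
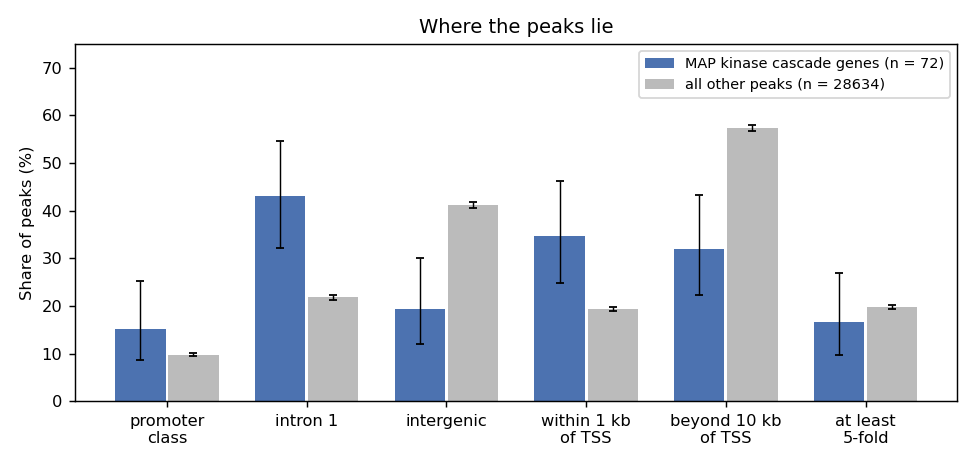
Share of peaks (%, vertical axis) in 6 overlapping categories for the 72 peaks of MAP kinase cascade genes (blue) and the 28634 other peaks (grey), with 95% Wilson intervals. The cascade share is higher in intron 1 (43.1% against 21.8%) and lower between genes (19.4% against 41.2%), while the share of peaks of at least 5-fold is 16.7% against 19.8%.

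Around the TSS, peaks lay on both sides, with 10 centred upstream and 15 downstream within 1000 bp. A peak covered the TSS itself at 8 of 46 genes (17.4%), against 6.73% of all protein-coding genes. These were Mapk3, Mapk6, Map3k5, Map3k6, Map3k11, Map4k2, Map4k3 and Map4k4. At 3 other genes the TSS fell in a short gap between 2 peaks, of 264 bp at Map2k2, 294 bp at Map2k3 and 227 bp at Map3k8. No MAP2K gene had a peak across its TSS. The number of peaks per gene had a median of 2 both in the 23 members and in all protein-coding genes with a peak, and 16 of 23 members (69.6%) had at least 2 peaks, against 54.1% of those genes.

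**Figure D4:**
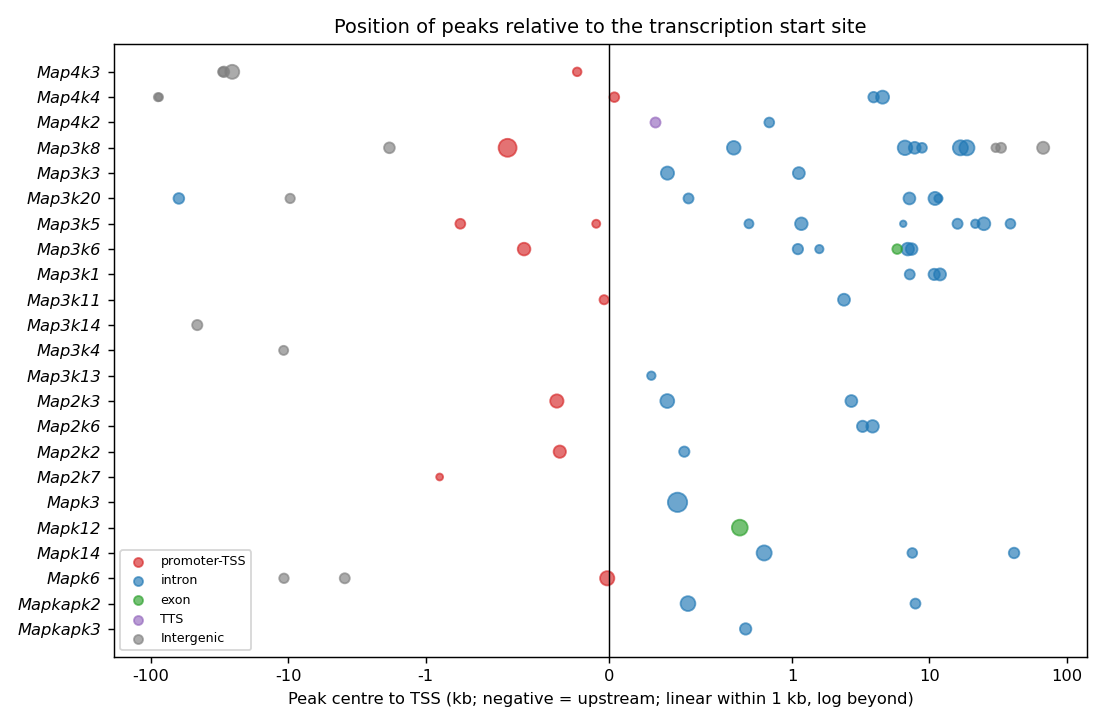
Distance from the TSS to the centre of each peak (kb, horizontal axis, negative upstream, linear within 1 kb and logarithmic beyond) for the 23 members, with point area rising with fold enrichment and colour giving the class. Points cluster within 1 kb of the TSS at 19 genes, and Map3k8 and Map3k5 have trains of peaks far downstream.

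By median, the promoters of the family were rich in G and C whether or not they carried a peak. RefSeq promoter windows of assembly GRCr8, 250 bases before to 50 after the start, matched 39 of the 46 genes. G and C made up a median of 66.0% at the 17 matched genes with a peak within 1000 bp and 66.8% at the 18 with no peak, against 55.3% over all 18999 promoters. Over all promoters, those with such a peak had 63.0% and those with no peak 52.7%, so the difference seen across the genome was not seen within this family. The GC box (GGGCGG, both strands) was found at 14 of 17 and 12 of 18 family promoters. Over all promoters it was found in 69.0% with such a peak, 35.9% with no peak and 43.1% in all. The TATA box (TATAAA, both strands) was found in none of the 39, against 6.23% with such a peak, 15.2% with no peak and 13.1% of all.

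One motif of the 11 searched was unevenly spread, and it was singled out after its values were seen. The CCAAT box (CCAAT, or ATTGG on the other strand), the site of the factor NF-Y, was found at 10 of the 17 family promoters with a peak within 1000 bp and at 1 of the 18 with no peak, that of Mapk7. Over all promoters the shares were 35.2% with such a peak, 39.3% with no peak and 38.4% in all, so the genome as a whole did not show the pattern. The peaks are on another build, rn6, and the windows were not aligned to them. Of the 4 family promoters with a peak only farther away, those of Map2k6 and Map3k14 held a match. To show the pattern, 4 promoters with a nearby peak and a match (Map3k8, Map2k3, Mapk14 and Map3k3) are given first. Those of Mapk8 and Map2k4 of the JNK arm, which had neither, follow. Other promoters with a nearby peak, such as that of Mapk12, held no match, and Map2k7 of the JNK arm had both. Letters run 5′ to 3′ on the gene's strand, and capitals mark CCAAT or ATTGG.
Map3k8 (GRCr8, chr17:58077925-58078224, plus strand): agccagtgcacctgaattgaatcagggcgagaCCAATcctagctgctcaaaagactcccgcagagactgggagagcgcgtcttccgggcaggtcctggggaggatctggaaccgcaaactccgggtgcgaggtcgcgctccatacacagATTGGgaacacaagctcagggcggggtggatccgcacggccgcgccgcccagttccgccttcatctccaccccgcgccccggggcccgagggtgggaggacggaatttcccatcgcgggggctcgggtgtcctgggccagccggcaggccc
Map2k3 (GRCr8, chr10:46107389-46107688, plus strand): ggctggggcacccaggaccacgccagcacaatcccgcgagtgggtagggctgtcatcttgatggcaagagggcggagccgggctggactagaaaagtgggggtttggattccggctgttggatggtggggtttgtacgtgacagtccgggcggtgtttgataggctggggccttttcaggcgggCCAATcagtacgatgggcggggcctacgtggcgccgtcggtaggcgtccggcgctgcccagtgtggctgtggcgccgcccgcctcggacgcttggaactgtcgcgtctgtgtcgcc
Mapk14 (GRCr8, chr20:6751109-6751408, plus strand): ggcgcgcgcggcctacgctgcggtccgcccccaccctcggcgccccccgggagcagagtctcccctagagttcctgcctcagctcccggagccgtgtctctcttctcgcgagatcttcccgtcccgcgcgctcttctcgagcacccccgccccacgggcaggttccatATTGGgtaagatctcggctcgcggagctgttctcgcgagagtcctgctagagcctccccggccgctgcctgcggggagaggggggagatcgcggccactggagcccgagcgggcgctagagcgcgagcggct
Map3k3 (GRCr8, chr10:91519726-91520025, plus strand): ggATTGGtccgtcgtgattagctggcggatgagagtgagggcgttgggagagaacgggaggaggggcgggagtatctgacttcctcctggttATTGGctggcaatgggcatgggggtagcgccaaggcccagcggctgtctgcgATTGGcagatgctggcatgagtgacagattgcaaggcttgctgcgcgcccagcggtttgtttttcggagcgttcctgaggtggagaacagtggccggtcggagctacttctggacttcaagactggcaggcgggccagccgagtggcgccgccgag
Mapk8 (GRCr8, chr16:8728176-8728475, minus strand): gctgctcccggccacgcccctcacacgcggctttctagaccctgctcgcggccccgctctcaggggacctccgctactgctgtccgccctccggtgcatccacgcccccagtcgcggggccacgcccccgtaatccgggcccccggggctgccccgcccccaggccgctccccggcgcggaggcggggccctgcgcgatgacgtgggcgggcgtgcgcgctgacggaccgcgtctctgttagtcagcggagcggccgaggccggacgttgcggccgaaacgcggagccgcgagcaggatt
Map2k4 (GRCr8, chr10:50946990-50947289, minus strand): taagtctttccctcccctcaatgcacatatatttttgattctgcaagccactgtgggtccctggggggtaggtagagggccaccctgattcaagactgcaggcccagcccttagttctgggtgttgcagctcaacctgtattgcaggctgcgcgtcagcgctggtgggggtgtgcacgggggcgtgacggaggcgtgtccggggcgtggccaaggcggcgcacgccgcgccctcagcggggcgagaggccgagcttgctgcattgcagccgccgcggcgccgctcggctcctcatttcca
Map3k8 holds 2 matches, Map3k3 3, and Map2k3 and Mapk14 1 each, at 66 and 82 bases before the start. Mapk8 and Map2k4 hold none in this window.

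**Figure D5:**
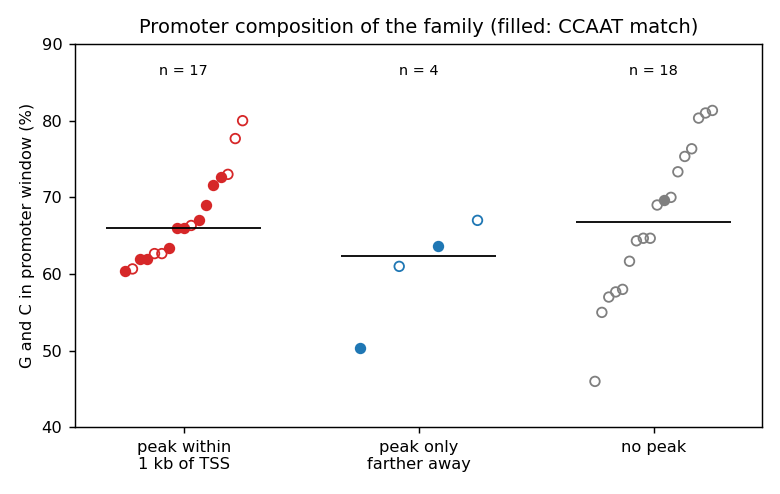
G and C content (%, vertical axis, from 40%) of the promoter windows of 39 family genes by peak status, each point a gene, filled where the window holds a CCAAT match, with the median as a line. The medians of genes with a peak within 1 kb (66.0%) and with no peak (66.8%) lie close, while filled points number 10 of 17 and 1 of 18.

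A few other matches are given as descriptions. The cyclic AMP response element (TGACGTCA) was found at Mapk10 and Map3k13 and in 2.22% of all promoters. The glucocorticoid response element (both strands) was found in 0.363% of all promoters and, within the family, at Map3k6 alone, as GCACAGGCTGTTC starting 181 bases before the start. Over all promoters the element was found in 0.368% of those with a peak within 1000 bp and in 0.375% of those with no peak. Map3k6 also had the widest promoter peak of the family, and a link between the match and that peak was not tested.

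Genes that work with the cascade were described from fixed lists. Over 90 genes of the pathway outside the name rule, 62 had a peak (68.9%, 95% Clopper-Pearson interval 58.3 to 78.2%), beside 23 of 46 cascade genes and 27.1% of all protein-coding genes. The lists were drawn up with earlier results of these data known. A peak within 1000 bp of the TSS stood at 52 of the 90 genes, against 17.1% of all genes, and the strongest peak of a gene can lie far from its TSS. Above the cascade, the Ras and Raf module had a peak at 12 of 16 genes, with Rras at 7.02-fold and the Ras exchange factor Sos1 at 6.59-fold. Rras2, Braf, Sos2 and Grb2 had none. Of the small GTPases and PAK kinases, Rac1 (6.36-fold) and Cdc42 (6.07-fold) had peaks and Rhoa, Pak1, Pak2 and Pak3 had none.

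Scaffolds and adaptors had a peak at 12 of 19 genes. Ksr1, a scaffold that holds RAF, MEK and ERK together, had 33 peaks with 6.85-fold at most, and Gadd45g, an activator of MAP3K4, had 17 with 6.56-fold at most. The JNK scaffolds Mapk8ip1, Mapk8ip2 and Mapk8ip3 had none, while the JNK scaffold Spag9 had 7 peaks with 4.57-fold at most. Those 3 scaffolds were singled out after their values were seen.

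Below the cascade stand its nuclear targets and its inhibitors. For the counts that follow, 27.1% of all protein-coding genes had a peak and 10.2% had one of at least 5-fold. Among the transcription factor targets, 15 of 17 genes had a peak and 13 of those reached 5-fold, with Ets1 at 9.06-fold and Junb at 8.07-fold. Elk1 and Atf2 had none. Feedback inhibitors and phosphatases, which switch MAPKs off or restrain their activation, had a peak at 12 of 16 genes, 11 of them of at least 5-fold. Dusp1, which dephosphorylates p38 and JNK, reached 10.1-fold and Dusp16, a JNK phosphatase, 9.26-fold. Both of these peaks were intergenic, 43.0 kb downstream and 34.0 kb upstream of the TSS, and neither gene had a peak within 1000 bp of it. A peak that near stood at 8 of the 16 inhibitor genes. Spred3, Dusp2, Dusp4 and Dusp9 had none. The median of the strongest peak per marked gene was 6.68-fold for the transcription factors and 6.25-fold for the inhibitors, against 4.79-fold for the 23 cascade genes and 4.63-fold for all marked protein-coding genes. The strongest of several peaks tends to rise with their number, which was not adjusted for. Kinases downstream of the MAPKs had a peak at 4 of 8 genes, with Mknk2 at 6.59-fold and Rps6ka2 at 5.93-fold, and Rps6ka1, Rps6ka5, Rps6ka6 and Mknk1 had none. Related kinases outside the name rule had a peak at 5 of 8 genes and none of at least 5-fold, led by Mink1, just under that strength at 4.9998-fold, and Taok2 at 4.38-fold. Taok1, Taok3 and Stk3 had none.

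A peak near a family gene can bear a neighbour's name. Of the 23 family genes without a peak, 11 (47.8%) had at least 1 immediate neighbour in the gene order with a peak, against 36% of the 16883 protein-coding genes without one. Mapk9, Mapk11, Mapk13 and Map2k4 had a peak at both neighbours. Mapk8, Mapk10, Map2k1, Map2k5 and Mapk7 had none under the name of either neighbour. The gene order is that of GRCr8, so a peak under an rn6 name absent from that table could not count for a neighbour. For Mapk10 the neighbours were Ndufb4l1 and LOC120096701, so the lack of a peak under such names does not show that none lay nearby. No older symbol of a family gene occurred among the names.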

How the data were processed

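H3K18la ChIP-seq peaks of 1 myocardial library were analysed. The submitters' processing notes list Bowtie2 and SAMtools, MACS2 and HOMER, FastQC, deepTools and Trim Galore, and build rn6; versions, read depth and the background library of the call are not given in the sources used here. Per the file headers the threshold was a q of 0.05, and the weakest deposited peak had 0.0493. Per the file headers and values, the authors deposited for each peak a fold enrichment (ratio), p-values and q-values as −log10, and a score, which the annotation copies. These are the authors' own values and were used only to describe, rank and filter peaks.

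Here the peak list was joined to the annotation by peak name (pandas 2.3.3, scipy 1.17.1). Peaks were counted for the gene named by the annotation. Shares of genes have Clopper-Pearson and shares of peaks Wilson 95% intervals, and differences of shares Newcombe intervals, for counting error only. Names were matched to a GRCr8 gene table (6224 of 8094 names to a current and 140 to an older symbol) for names, gene order and background. A peak covered a TSS when its centre lay within its own width divided by 2 of it. Named were the members, the strongest peak of each MAPK, MAP2K and MAPKAPK member, the 5 strongest and 3 widest peaks, and the 2 strongest genes of each list with, where 5 or fewer, those lacking a peak; further list genes were chosen after their values were seen. Counting was tested on simulated data. Members and lists were chosen with earlier results of these data known. Some genes, and an arm count that rests on one of them, are not reported here.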

Additional observations from a re-analysis of the deposited data

How the results depend on the processing

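The counts depended on what counts as a peak. With only peaks of −log10 q of at least 5, 14 family genes had a peak, and with promoter-class peaks only 10 did, against 23 with all peaks. These smaller counts follow from the smaller number of peaks counted, and both still lay above the 14.4% and 9.87% of all protein-coding genes that pass the same rules. With promoter-class peaks only, the p38 share fell below the JNK share, by -8.89 percentage points. Under the 3 other choices of peaks that changed the counts (fold enrichment of at least 4, and windows of 1000 and 10000 bp) and the minimum on q, the p38 share exceeded the JNK share by 35.6 to 66.7 points. It did so by 40 points with Map2k4 in both arms. With some MAP3K and MAP4K genes given to other arms and none to p38, it did so by 22.9 points (6 of 9 against 7 of 16 genes). The lead of the MAP3K and MAP4K genes over the MAPK genes shrank to 4.01 points at the minimum on q. The median fold enrichment of cascade peaks was below that of other peaks by -0.189, and above it by 0.0061 among peaks of at least 4-fold and by 0.139 within 1000 bp of a TSS. Counting older symbols changed nothing, since none occurred. No paired analysis was possible because 1 of the 2 samples had values here. Depth was unknown, so weak or missing peaks cannot be told from shallow sequencing.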
